A study of Mus musculus with 10 samples.

Results

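C-type lectin receptors of myeloid cells are surface proteins by which macrophages, monocytes, neutrophils and dendritic cells bind carbohydrates, glycolipids and products of damaged cells. The receptors described here are Clec5a, Clec7a, Clec4n, Clec4d, Clec4e, Clec4a2, Clec12a and Ly75. They were chosen by name, with earlier results of these data known, as members of this family that activate, inhibit or serve antigen uptake. Every array probe whose current symbol is 1 of these 8 genes was taken. This gave 13 probes of the 41174 on the array and 8 of its 27670 genes, in which probes without a current symbol are counted under the name in the files. Lung RNA was measured in 10 female BALB/c mice, an inbred laboratory strain, aged 6 to 8 weeks when obtained. The smoke group of 5 mice inhaled mainstream smoke of 12 cigarettes in each of 2 sessions of 50 minutes a day, 5 days a week over 8 weeks, and the 5 control mice were kept in room air for the same time. Each lung was hybridised to 1 Agilent array, and no treatment, transgene or infection besides the smoke is named for either group. The values asked how the expression of these receptors differed between the lungs of the 2 groups.

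Receptors of the activating kind reach the kinase Syk, either through a motif in their own tail or through the adaptors Fcer1g and Tyrobp, while the adaptor Hcst recruits a lipid kinase, and downstream of Syk Card9 with its partners carries the signal to NF-κB and to cytokine and chemokine genes. Inhibitory receptors carry a motif that recruits the phosphatases Ptpn6 and Ptpn11. In the lung, alveolar macrophages and recruited monocytes, neutrophils and dendritic cells carry most of these receptors, which are known for sensing fungi, mycobacteria and dying cells. Whole lung was measured, so more receptor-bearing cells and more RNA per cell, and likewise fewer cells of a type and less RNA per cell, cannot be told apart.

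A reference table of mouse promoters from RefSeq, on the build GRCm38.p6, held 7 of the 8 genes, all but Clec4n. The 250 bases before the start were searched on both strands for the letters GAGGAA, the core of sites bound by PU.1, a transcription factor of myeloid cells. These letters were found in 5 of the 7 genes, namely Clec5a, Clec7a, Clec4d, Clec4e and Clec12a, and in 23.3% of the 32851 promoters in the table. The letters GCGTG, the core of sites for the aryl hydrocarbon receptor, were found in 2 of the 7, Clec4e and Ly75, and in 28.2% of all promoters. The letters TGACNNNGC, the core of the antioxidant response element, were found in 0 of the 7 and in 10.2% of all promoters. Matches describe the letters in these windows and not binding. The windows of Clec5a, Clec7a, Clec4d and Clec4e are printed because these 4 genes stood apart in 1 lung of the room air group, described further on. They lie on chromosome 6 at chr6:40585806-40586055 (minus strand), chr6:129472780-129473029 (minus strand), chr6:123261857-123262106 (plus strand) and chr6:123289872-123290121 (minus strand). Capitals mark GAGGAA or its reverse complement TTCCTC.
Clec5a: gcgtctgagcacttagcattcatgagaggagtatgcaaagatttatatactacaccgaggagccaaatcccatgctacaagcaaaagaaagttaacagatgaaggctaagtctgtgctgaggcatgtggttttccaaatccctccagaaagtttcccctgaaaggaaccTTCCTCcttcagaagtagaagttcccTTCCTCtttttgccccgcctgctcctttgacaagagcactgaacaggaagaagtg
Clec7a: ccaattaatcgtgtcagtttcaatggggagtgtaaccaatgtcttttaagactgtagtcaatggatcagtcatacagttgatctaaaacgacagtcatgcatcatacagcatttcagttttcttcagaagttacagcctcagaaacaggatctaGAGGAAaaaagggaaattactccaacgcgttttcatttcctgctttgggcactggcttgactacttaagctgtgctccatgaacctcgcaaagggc
Clec4d: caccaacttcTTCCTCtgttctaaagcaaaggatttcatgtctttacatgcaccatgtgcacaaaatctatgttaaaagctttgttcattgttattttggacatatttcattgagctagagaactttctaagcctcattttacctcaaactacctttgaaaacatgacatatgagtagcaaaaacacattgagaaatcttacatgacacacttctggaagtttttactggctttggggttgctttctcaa
Clec4e: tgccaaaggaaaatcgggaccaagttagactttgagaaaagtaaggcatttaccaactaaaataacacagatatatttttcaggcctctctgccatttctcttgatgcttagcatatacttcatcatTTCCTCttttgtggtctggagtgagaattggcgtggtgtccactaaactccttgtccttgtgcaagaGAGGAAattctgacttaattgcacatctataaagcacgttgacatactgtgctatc
Clec5a and Clec4e held 2 matches each, and Clec7a and Clec4d held 1 each. In the gene table of the same build, Clec4n, Clec4d and Clec4e are consecutive protein-coding genes of chromosome 6, and Clec4a2 lies close to them, with Clec4b2 between it and Clec4n. Clec7a lies between Clec1a and Olr1 on the same chromosome, Clec12a beside Clec12b, and Ly75 between Cd302 and Pla2r1 on chromosome 2.

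The values are log2 ratios of the red channel, which held the lung RNA, over the green channel, which held a reference RNA common to the arrays. This assignment was read from the values, as the labels name a single dye. The Y chromosome gene Ddx3y, absent from female mice, passed the scanner's background test on 10 of 10 arrays in green but on 2 in red, while Sftpc, the surfactant protein of alveolar type II cells, had a log2 signal 6.39 higher in red than in green. The lungs are labelled by group in the sample records, and a deposited table of processed values carries the groups exchanged, so the labels were set against genes known to answer to smoke. These were picked outside the rule for naming genes. Cyp1b1, an enzyme induced by polycyclic hydrocarbons, had a ratio 8.37-fold higher in the smoke group (log2 difference 3.06, SE 0.12, adjusted p = 1.08e-07 by limma, groups not overlapping). Nqo1, an enzyme of the oxidant response, was 4.23-fold higher (log2 difference 2.08, SE 0.09, adjusted p = 2.5e-07 by limma). Cyp1a1, the other Cyp1 enzyme looked at, did not pass, with overlapping groups and a log2 difference of 1.09 (SE 0.48, adjusted p = 0.254 by limma). The share of spots well above background in red was 67.8% to 76.7% on the room air arrays and 64.9% to 77.5% on the smoke arrays. Precision is limited by the number of arrays.

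Of the 8 receptor genes, 7 were well above background in red on 10 of 10 arrays. For a gene with several probes, the probe with the brightest red signal stands for it. With smoke, 5 of the 8 genes were higher at an adjusted p under 0.05 by limma and 0 were lower, where 4.94% of all 27669 genes tested were higher and 3.27% lower. The 5 genes were Clec5a, Clec7a, Clec4n, Clec4a2 and Ly75. The groups did not overlap in the same number of genes, 5 of 8, against 4.59% of all genes with the smoke group above. A rise of over 2-fold was called for 4 of the 8, against 0.625% of all genes. The median log2 difference was 1.24 over the 8 receptors and -0.0041 over all genes. As the members were chosen with earlier results of these data known, these counts describe them and do not test the family. An exact two-sided Wilcoxon test of the same ratios called 0 of the 8 receptors and 0 probes of the array after Benjamini-Hochberg adjustment, while 5 receptors and 5448 probes had an unadjusted p under 0.05. With 5 lungs in each group, the smallest p this exact test can give is 0.00794.

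Clec5a, a receptor that signals through the adaptors Tyrobp and Hcst, showed the largest fold of the 8 by limma. Its log2 ratio at probe A_52_P218058 was 0.13, -1.39, -1.55, -1.53 and -1.28 in room air replicates 1 to 5 and 1.00, 0.76, 1.17, 0.93 and 1.43 in smoke replicates 1 to 5. The smoke lungs were above the room air lungs without overlap, and room air replicate 1 was the highest of its group by a wide gap. The ratio rose 4.54-fold with smoke (log2 difference 2.18, SE 0.29, adjusted p = 0.000861 by limma). Without room air replicate 1 it rose 5.64-fold (log2 difference 2.50, SE 0.12).

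The 3 probes of Clec5a gave different sizes, by an amount that depends on the processing. Probe A_51_P398376 had ratios of -0.39, -0.50, -0.53, -0.32 and -0.36 in room air and 0.02, -0.05, -0.11, 0.14 and 0.15 with smoke. The groups did not overlap. Room air replicate 1 lay among the other room air lungs in this ratio, but its red signal scaled to the 75th percentile was the highest of its group, at -5.33 on the log2 scale against -7.52 to -6.14 in the other 4. This probe rose 1.37-fold (log2 difference 0.45, SE 0.07, adjusted p = 0.00159 by limma). It was well above background in red on 2 of 5 room air arrays and on 5 of 5 smoke arrays, so its difference includes lungs near the floor of the measurement. The array annotation lists it for 1 of the gene's 2 transcripts, NM_021364, while the other probes are listed for both, and its 60 bases cover 2915 bases of the genome at chr6:40512292-40515206 (mm7, minus strand), that is, they cross an intron.
Clec5a A_51_P398376: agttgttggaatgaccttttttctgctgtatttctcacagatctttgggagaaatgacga
The remaining probe, A_52_P142888, was well above background in red on 1 room air and 3 smoke arrays and had a log2 difference of 0.20 (SE 0.07, adjusted p = 0.149 by limma). For the 3 probes in the order given, a smaller offset in the background correction, 10 in place of 50, gave log2 differences of 2.40, 0.96 and 0.58, the scanner's log ratio 2.54, 2.36 and 1.83, and red alone scaled to the 75th percentile 2.53, 2.37 and 1.54. The remaining probe passed the threshold by limma in red alone (adjusted p = 0.0454), with the slide as a block (0.0273) and without room air replicate 1 (0.0193), and its adjusted p over the limma alternatives ran from 0.0193 to 0.307.

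Clec7a, known as Dectin-1, binds β-glucans of fungal walls and recruits Syk through its own tail. Its log2 ratio was 3.04, 2.14, 2.21, 2.22 and 2.36 in room air replicates 1 to 5 and 3.90, 4.12, 4.02, 3.98 and 4.14 in smoke replicates 1 to 5. Every smoke lung was above every room air lung, and room air replicate 1 was again the highest of its group. The ratio rose 3.11-fold (log2 difference 1.64, SE 0.15, adjusted p = 7.52e-05 by limma), and the smoke lungs varied little, with an SD of 0.10.

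Clec4n, Clec4d and Clec4e, known as Dectin-2, MCL and Mincle, are the neighbours on chromosome 6 that signal through Fcer1g. Clec4n recognises mannose-rich glycans. Its log2 ratio was 3.82, 2.75, 3.47, 2.40 and 3.16 in room air and 5.12, 4.82, 5.40, 4.29 and 4.98 with smoke. The groups did not overlap, although both spread over more than 1 log2 unit. The ratio rose 3.49-fold (log2 difference 1.80, SE 0.27, adjusted p = 0.00173 by limma). The scanner's log ratio did not pass the threshold, with a log2 difference of 1.59 and an adjusted p of 0.0871, in a range of 7.27e-05 to 0.0871 over the limma alternatives. The lowest ratios of both groups were on the slide of replicate 4. The green reference had its highest signal there, 7.83 in room air and 8.31 with smoke on the log2 scale against 6.14 to 6.87 elsewhere, and the scaled red signal of the lungs was not the lowest of either group. Within slides the difference stayed between 1.30 and 2.07. The single probe of Clec4n crosses an intron too, its 60 bases covering 1907 bases at chr6:123281342-123283248 (mm7, plus strand).
Clec4n A_51_P263471: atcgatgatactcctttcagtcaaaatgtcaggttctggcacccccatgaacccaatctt

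Clec4d, which binds mycobacterial glycolipid and pairs with Clec4e, did not pass the threshold over all 10 lungs. Its log2 ratio was 0.50, -2.18, -2.13, -2.26 and -1.72 in room air replicates 1 to 5 and -0.07, -0.13, -0.02, -0.44 and 0.07 in smoke replicates 1 to 5. The other 4 room air lungs were below every smoke lung, and room air replicate 1 was above every smoke lung. The log2 difference was 1.44 (SE 0.45, adjusted p = 0.0874 by limma). Without room air replicate 1 it was 1.96, a 3.88-fold rise (SE 0.12, adjusted p = 3.08e-06 by limma). With the slide as a block and all 10 arrays kept, the adjusted p of Clec4d was 0.038.

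Clec4e, the receptor for mycobacterial cord factor and for a nuclear protein released by dying cells, had the same layout with a smaller difference. Its log2 ratio was -0.14, -3.12, -3.19, -3.22 and -3.18 in room air and -2.37, -2.31, -2.30, -2.49 and -2.21 with smoke. The 5 smoke lungs lay close together, the other 4 room air lungs closer still and below them, and room air replicate 1 was far above both. The log2 difference over all lungs was 0.23, with a 95% interval of -0.90 to 1.36 and an adjusted p of 0.904 by limma. Without room air replicate 1 it was 0.84, a 1.79-fold rise (SE 0.06, adjusted p = 7.97e-06 by limma). The call for Clec4e rests on whether that 1 lung is kept.

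**Figure D1:**
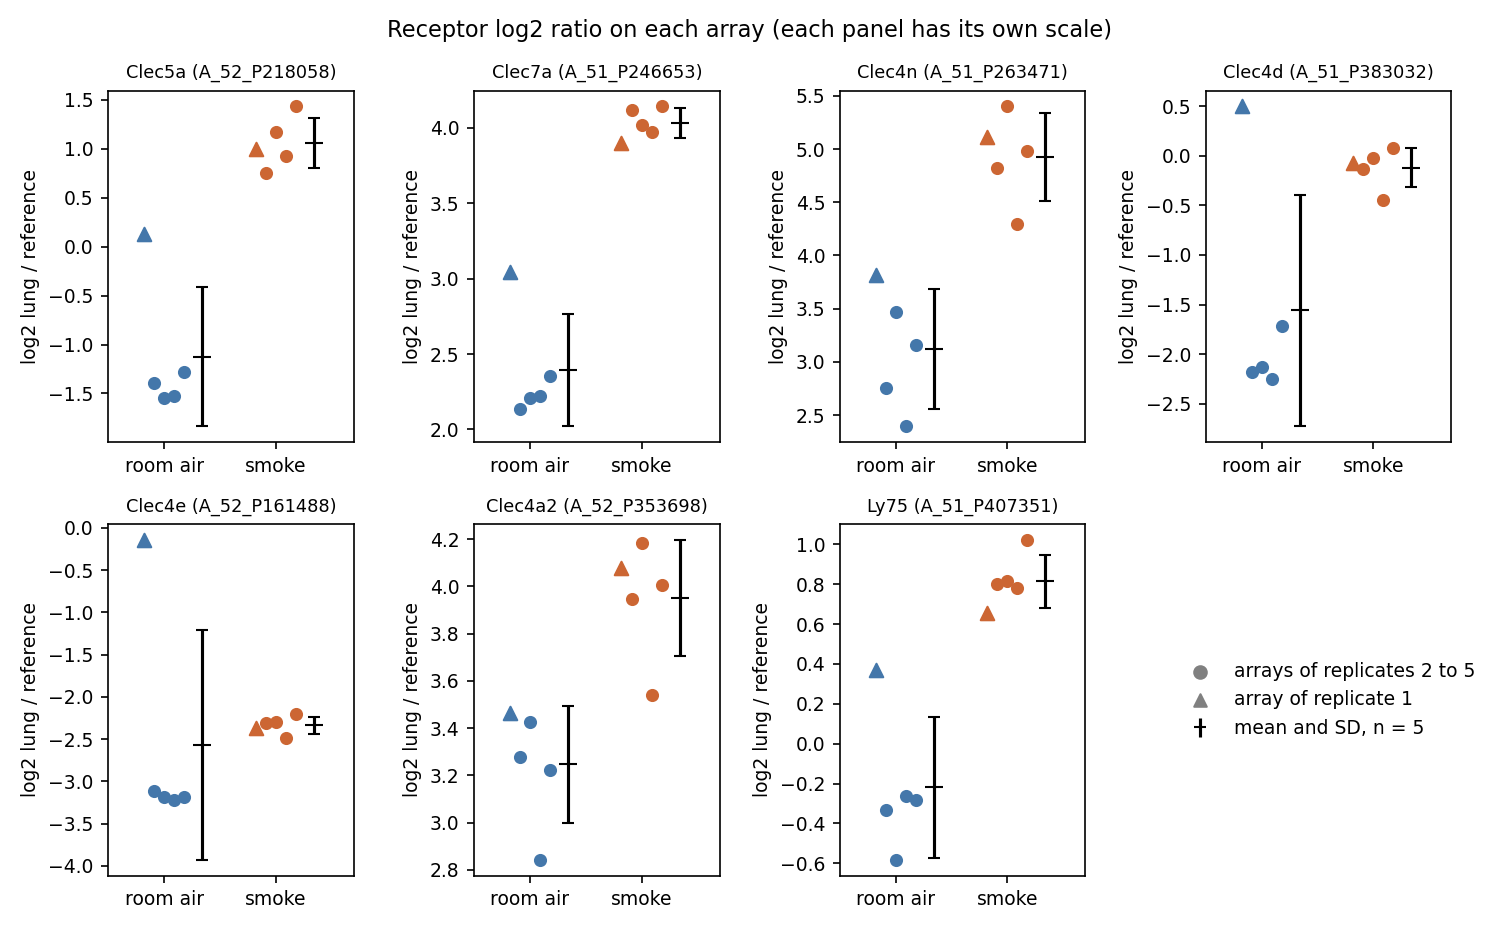
Log2 ratio of lung over reference (vertical axes, each panel on its own scale) for the brightest probe of the 7 receptors well above background, in 5 room air and 5 smoke lungs. Points are arrays, triangles mark replicate 1 of each group, and bars give the mean and SD. The triangle of room air lies above all smoke points for Clec4d and Clec4e and between the other room air points and the smoke points for the other 5 receptors.

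Clec4a2, known as DCIR, is an inhibitory receptor of dendritic cells, monocytes and neutrophils. At its brightest probe, A_52_P353698, the log2 ratio was 3.46, 3.28, 3.43, 2.84 and 3.22 in room air and 4.08, 3.95, 4.18, 3.54 and 4.01 with smoke. The groups did not overlap, with the lowest smoke lung close to the highest room air lung, and room air replicate 1 did not stand apart. The ratio rose 1.63-fold (log2 difference 0.70, SE 0.14, adjusted p = 0.00878 by limma). This probe is listed for a transcript of Clec4b1 as well, a neighbouring receptor, so its signal may hold RNA of both genes. Probe A_51_P444092 is listed for Clec4a2 alone and crosses an intron at chr6:123165001-123176223 (mm7, plus strand).
Clec4a2 A_51_P444092: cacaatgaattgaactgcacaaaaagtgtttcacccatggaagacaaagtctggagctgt
Its log2 ratio was 1.59, 1.15, 1.56, 0.89 and 1.28 in room air and 2.33, 2.02, 2.58, 1.71 and 2.01 with smoke, again without overlap. It rose 1.78-fold (log2 difference 0.83, SE 0.17, adjusted p = 0.0129 by limma). The green reference was not well above background for this probe on any array, so the size of the ratio depends on the floor of that channel, and red alone scaled to the 75th percentile was 2.56-fold higher (log2 difference 1.36, adjusted p = 0.00498 by limma). The fit of the scanner software's own log ratio lost both calls, with log2 differences of 0.39 (adjusted p = 0.181) and 0.62 (adjusted p = 0.511). In the green channel alone, where the reference RNA should not follow the groups, the first of these probes was 0.84 higher on the log2 scale with smoke (SE 0.11, adjusted p = 0.0841 by limma), and in red alone it was 1.23 higher, so the ratio gives a smaller difference than the lung channel. A further probe, A_52_P356106, was not well above background in red on any array.

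Clec12a, an inhibitory receptor for uric acid crystals, was not well above background in red on any of the 10 arrays, and no difference is given for it. Ly75, known as DEC-205, takes up antigen for presentation and is best known from dendritic cells. Its log2 ratio at probe A_51_P407351 was 0.37, -0.33, -0.58, -0.26 and -0.28 in room air and 0.66, 0.80, 0.82, 0.78 and 1.02 with smoke. The groups did not overlap and room air replicate 1 was the nearest to the smoke lungs. The ratio rose 2.05-fold (log2 difference 1.03, SE 0.15, adjusted p = 0.00142 by limma). At the dimmer probe A_52_P546030 it was -0.81, -0.81, -1.04, -0.63 and -0.70 in room air and -0.26, -0.25, -0.30, -0.09 and -0.15 with smoke. There room air replicate 1 lay within its group, and the rise was 1.51-fold (log2 difference 0.59, SE 0.08, adjusted p = 0.000711 by limma). The size of this probe's difference depends on the processing, at 1.17 with the scanner's log ratio and 1.11 in red alone scaled to the 75th percentile, where the threshold was missed (adjusted p = 0.081, in a range of 0.000265 to 0.081 over the limma alternatives). Over all 13 probes, 8 were called higher and did not overlap between groups, against 4.36% of 41173 probes called higher and 4.09% with the smoke group above. Of the 13 probes 0 were called lower, against 2.71% of all probes.

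**Figure D2:**
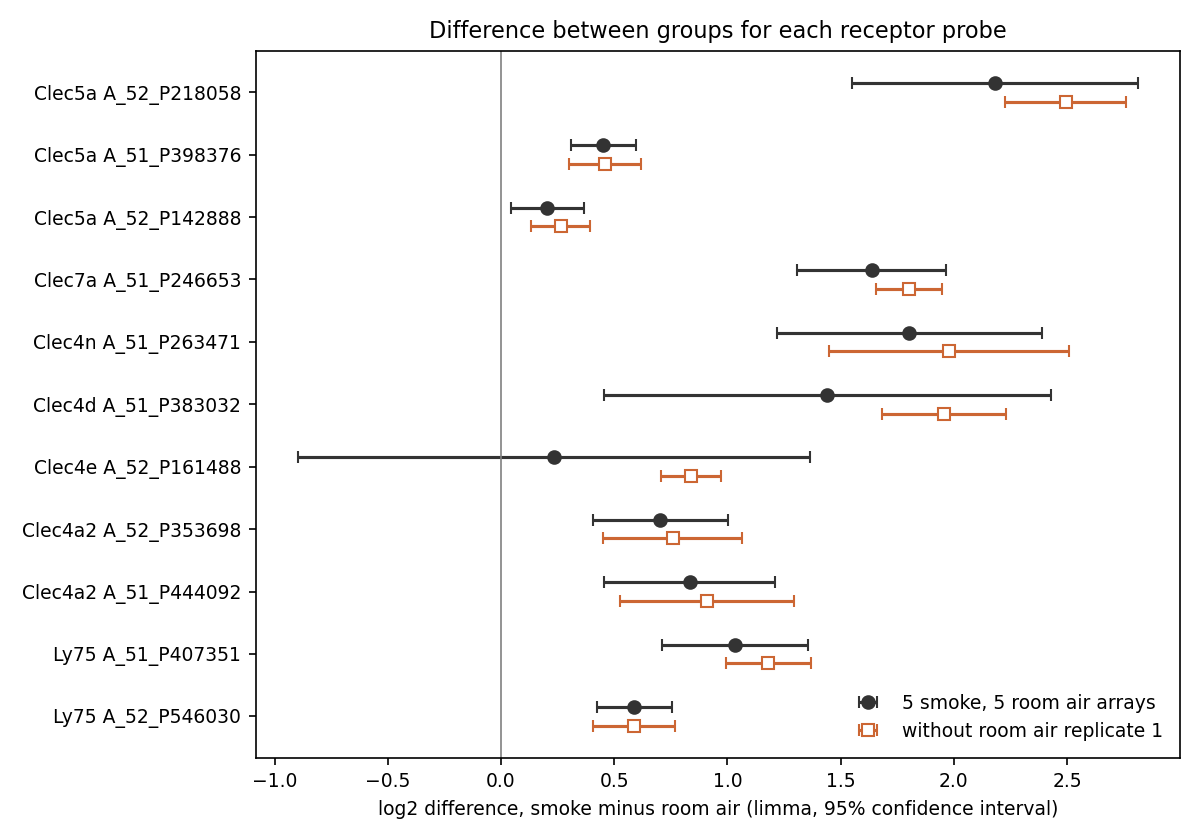
Log2 difference, smoke minus room air, of the 11 receptor probes above background on at least 1 array, with the 95% confidence interval of limma (horizontal axis). Filled circles use all 10 arrays and open squares leave out room air replicate 1. The interval of Clec4e holds 0 with all arrays and lies above 0 without that array.

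Room air replicate 1 decided the spread of several receptors. Over the mean of the other 4 room air lungs it was 8.18-fold higher for Clec4e, 5.95-fold for Clec4d, 2.96-fold for Clec5a, 1.83-fold for Clec4n, 1.76-fold for Clec7a, 1.67-fold for Ly75 and 1.21-fold for Clec4a2. With this array left out, 7 of the 8 receptors were higher with smoke by limma, against 6.22% of all genes. The omission is 1 of the planned omissions of each array in turn, and was singled out after its values were seen. Each slide held the smoke and room air arrays of 1 replicate number, so each receptor was also compared within slides. The smoke array was at place 1 and the room air array at place 2 on each of the 5 slides, so place on the slide and group cannot be told apart. On the slide of replicate 1 the log2 difference of Clec4d, smoke minus room air, was -0.57, and on the other 4 it was 1.79 to 2.11. That of Clec4e was -2.23 on the same slide and 0.73 to 0.97 on the other 4. Clec5a, Clec7a, Clec4n, Clec4a2 and Ly75 were higher with smoke on 5 of 5 slides. This follows from their groups not overlapping and adds no support of its own. With the slide as a block, limma called 6 of the 8 receptors, Clec4d being added, against 7.49% of all genes.

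**Figure D3:**
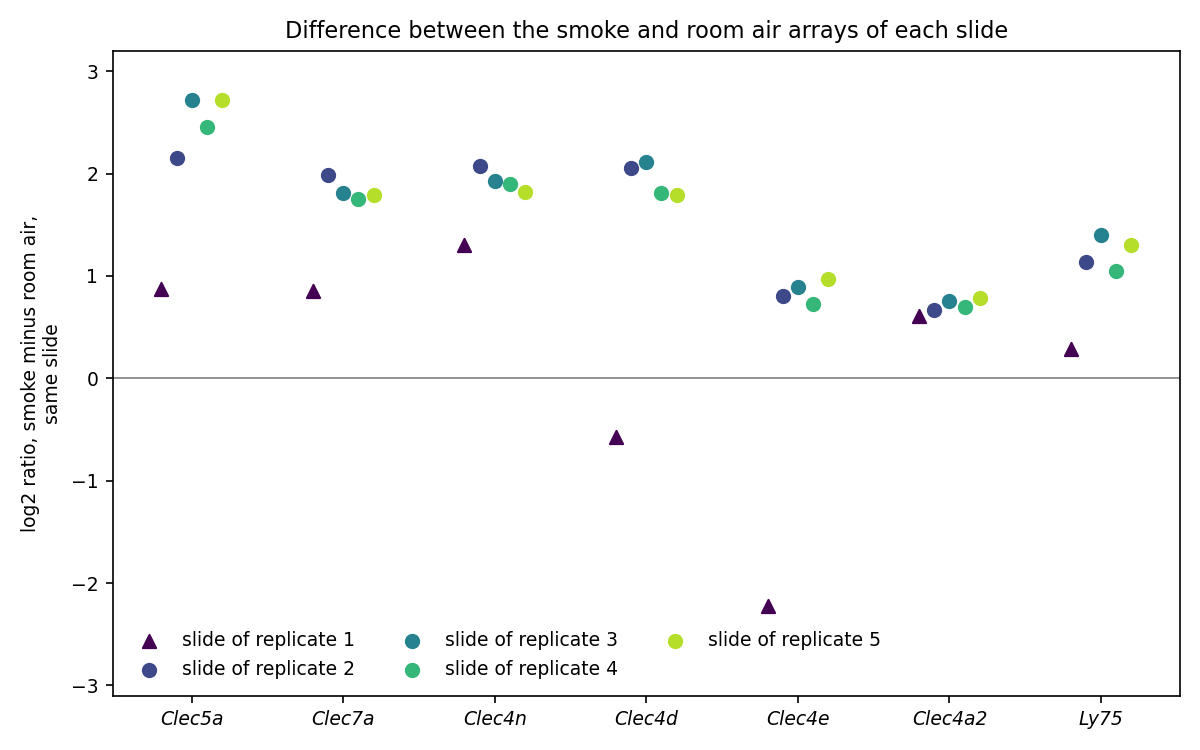
Difference in log2 ratio between the smoke and the room air array of the same slide (vertical axis) for 7 receptors, 1 point per slide, with a triangle for the slide of replicate 1. The triangles of Clec4d and Clec4e lie below 0, at -0.57 and -2.23, and all other points lie above 0.

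Other genes moved with the receptors in that lung. The 19 fixed target genes, cytokines, chemokines, Ptgs2 and the early transcription factors Egr2 and Egr3, described downstream of the receptors, included 15 that were well above background in red on 5 or more arrays. Their mean log2 ratio was 1.02 in room air replicate 1, -1.04, -1.03, -0.98 and -0.92 in the other 4 room air lungs, and -0.17, -0.07, -0.04, -0.09 and -0.01 in the smoke lungs. The lung of room air replicate 1 was thus above the smoke lungs, which were all above the other 4 room air lungs. Over 10 neutrophil markers the mean log2 ratio was 3.04 in that lung, 1.55 to 1.82 in the other 4 room air lungs and 2.04 to 2.57 with smoke. Over 11 monocyte and macrophage markers it was 1.36 in that lung, 0.79 to 0.85 in the other 4 and 1.81 to 1.93 with smoke. Over 5 general leukocyte markers it was 0.63 in that lung, 0.01 to 0.36 in the other 4 and 0.83 to 1.03 with smoke, and over 10 dendritic cell markers 1.30, 0.86 to 1.10 and 1.17 to 1.46. Over 7 endothelial and 11 epithelial markers that lung lay within the range of its group, at 4.60 and 5.15. The part of cell number in the receptor values of that lung was not tested.

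**Figure D4:**
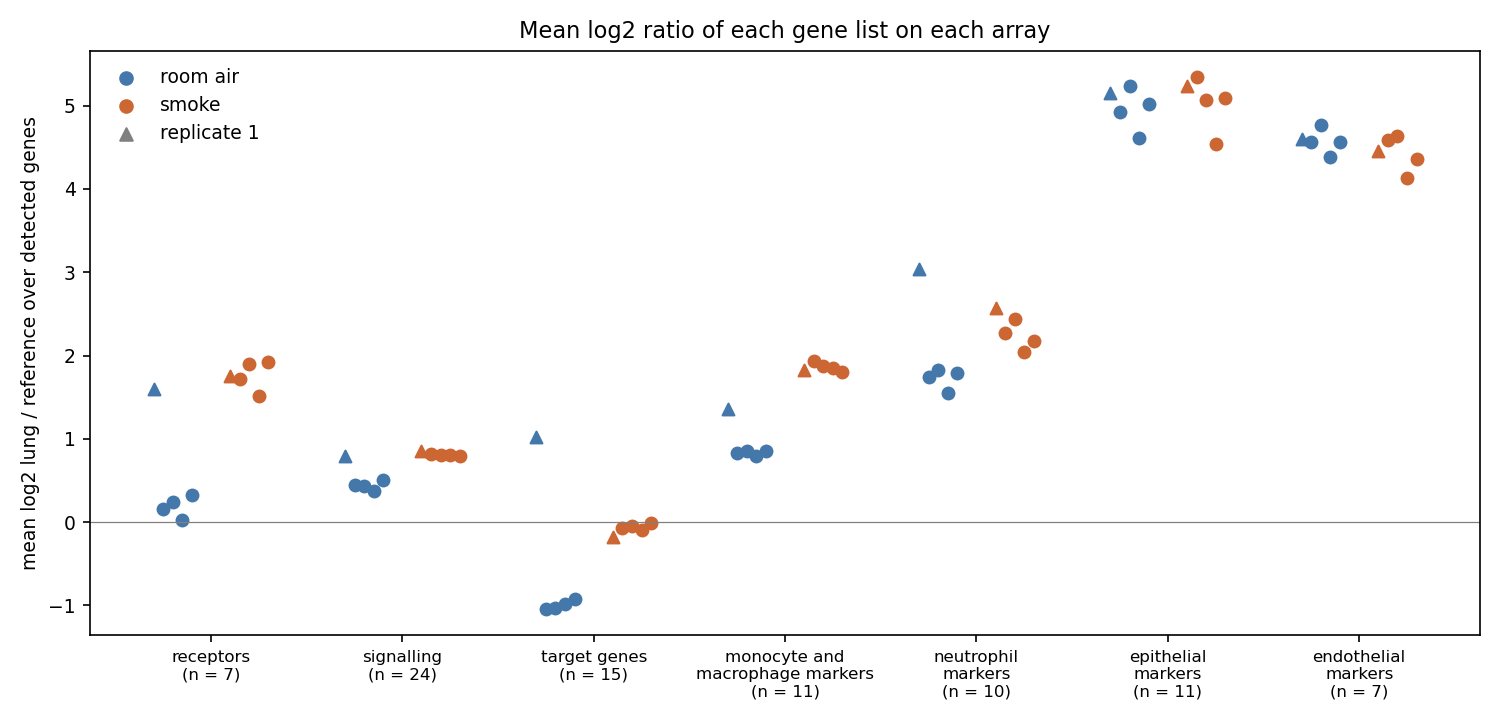
Mean log2 ratio of lung over reference (vertical axis) over the detected genes of each list, on each of 10 arrays, with triangles for replicate 1. Room air replicate 1 is above all smoke arrays for target genes (1.02) and neutrophil markers (3.04), and between the groups for monocyte and macrophage markers (1.36).

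Most of the activating receptors need adaptors, and these were given whatever their values. Fcer1g, the adaptor of Clec4n, Clec4d and Clec4e, had log2 ratios of 0.47, -0.32, -0.58, -0.35 and -0.40 in room air and 0.85, 1.04, 1.03, 1.06 and 1.03 with smoke. The groups did not overlap, and it rose 2.36-fold (log2 difference 1.24, SE 0.16, adjusted p = 0.000813 by limma). Tyrobp, the adaptor of Clec5a, rose 1.95-fold (log2 difference 0.96, SE 0.08, adjusted p = 4.2e-05 by limma) without overlap. Hcst, which also pairs with Clec5a, rose 1.44-fold with overlapping groups (log2 difference 0.52, SE 0.12, adjusted p = 0.023 by limma), and the kinase Syk 1.61-fold, also with overlap (log2 difference 0.69, SE 0.16, adjusted p = 0.0216 by limma). Card9 was not measured by a named probe. Of the 24 measured signalling genes, 9 were higher and 0 lower by limma, against 4.94% and 3.27% of all genes, with a median log2 difference of 0.14. Ptpn6, the phosphatase of inhibitory receptors such as Clec4a2, rose 1.75-fold (adjusted p = 0.000221 by limma), and Plcg2, a phospholipase downstream of Syk, 1.48-fold (adjusted p = 5.98e-05 by limma). Vav1, Pycard and Prkcd were the others called. Signalling genes other than the adaptors and Syk are named outside the rule, after their values were seen. Ptpn11 had a log2 difference of -0.19 with an adjusted p of 0.0632, and Malt1, partner of Card9 and Bcl10, one of 0.72 with an adjusted p of 0.175. With the slide as a block both passed by limma, Ptpn11 lower (adjusted p = 0.0275) and Malt1 higher (adjusted p = 0.0413), and without room air replicate 1 the adjusted p was 0.102 for Ptpn11 and 0.00381 for Malt1.

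Among the target genes 2 of 19 were called higher and 0 lower by limma, against 4.94% and 3.27% of all genes. Egr2, an early transcription factor, rose 2.14-fold (log2 difference 1.10, SE 0.14, adjusted p = 0.000803 by limma), and Il12b, a subunit of interleukins of T cell priming, 1.53-fold (adjusted p = 0.0156 by limma). For Il12b the green reference was well above background on 0 of 10 arrays, so the size of its fold depends on the floor of that channel. Without room air replicate 1 the count was 10 of 19, against 6.22% of all genes. The chemokine Cxcl1 showed how much that lung weighed, with a log2 difference of 1.60 (SE 0.84, adjusted p = 0.37 by limma) over all lungs and 2.58 (adjusted p = 1.5e-07) without it. Tnf went from 0.19 (adjusted p = 0.922) to 0.77 (adjusted p = 0.00155) in the same way. Il12b, Cxcl1 and Tnf lie outside the rule for naming genes and were chosen after their values were seen.

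Of 36 other C-type lectin receptors measured, 8 were higher and 3 lower by limma, against 4.94% and 3.27% of all genes, with a median log2 difference of 0.03. With the slide as a block 5 were lower, where 6.3% of all genes were, and in red alone scaled to the 75th percentile 1, where 1.75% of all genes were. Asgr2, a subunit of the asialoglycoprotein receptor, rose 2.70-fold (adjusted p = 0.000263 by limma), Olr1, the receptor for oxidised low-density lipoprotein beside Clec7a, 2.51-fold (adjusted p = 0.000475) and Mrc1, the macrophage mannose receptor, 2.20-fold (adjusted p = 0.00115), with a green reference well above background on 2 of 10 arrays. Asgr1, the partner subunit of Asgr2, fell by 1.03 on the log2 scale (SE 0.15, adjusted p = 0.00194 by limma), so the 2 subunits moved in opposite directions. Clec4b1, the neighbour whose transcript shares a probe with Clec4a2, had a log2 difference of 0.89 at its own probe, and is named outside the rule.

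**Figure D5:**
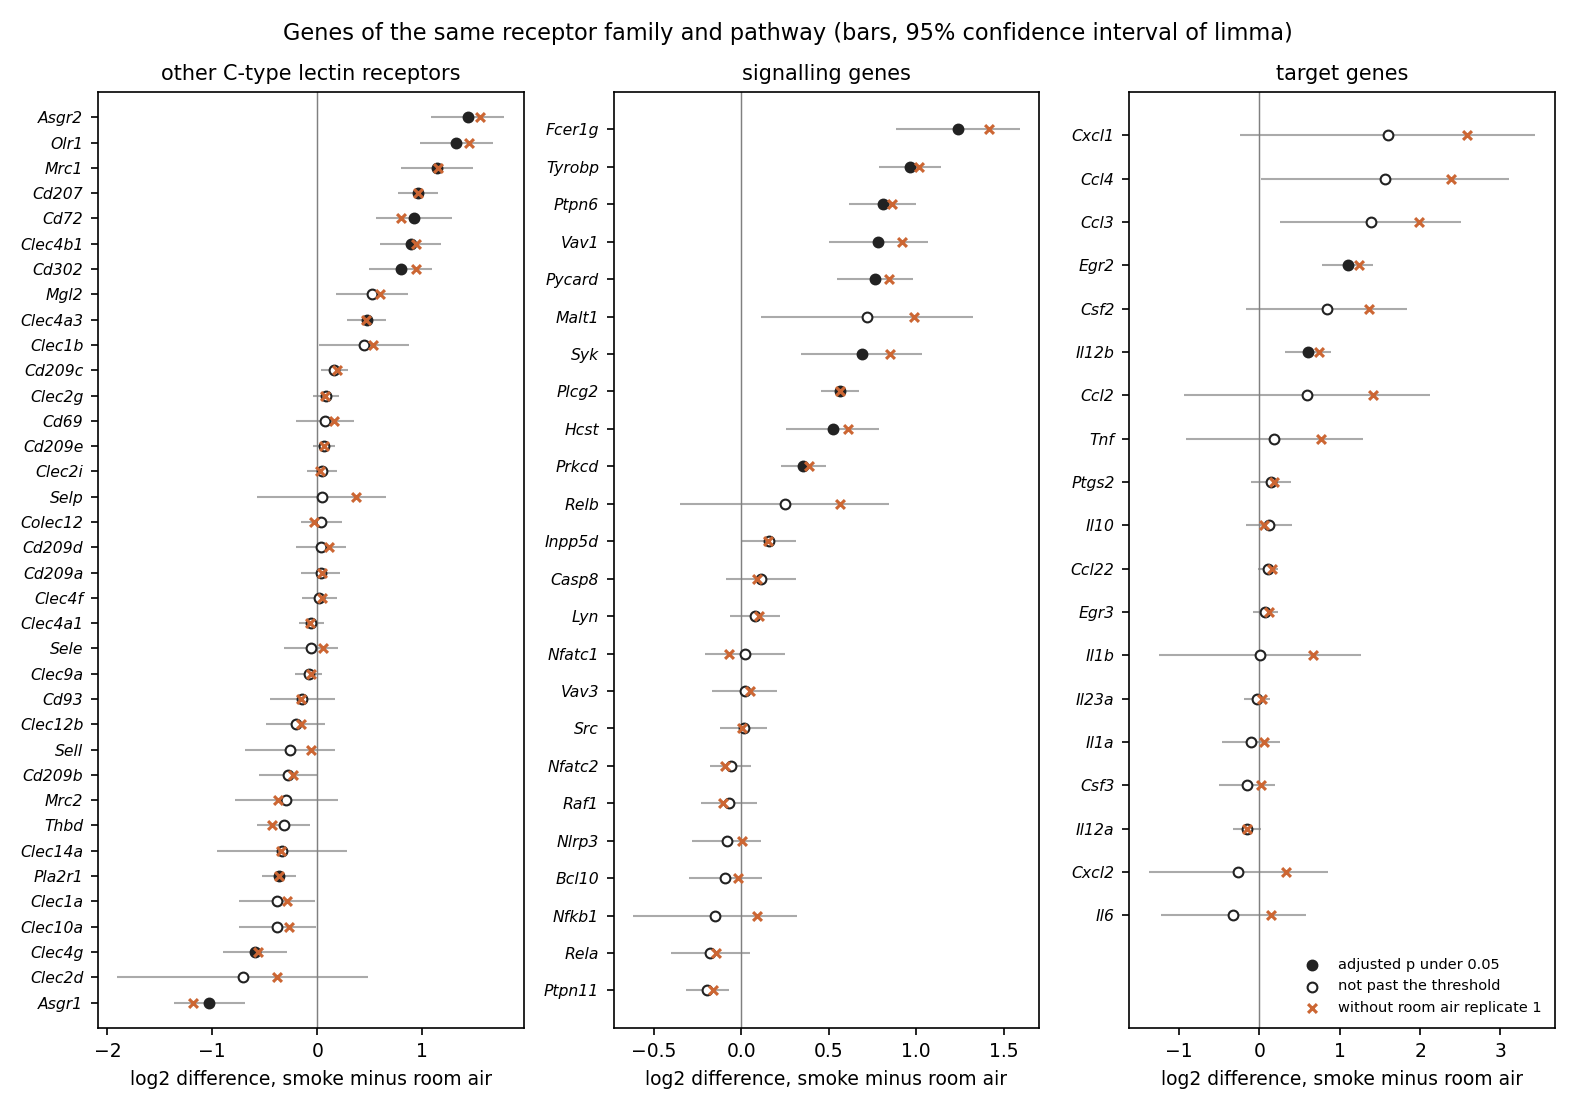
Log2 difference, smoke minus room air (horizontal axes), of 36 other C-type lectin receptors, 24 signalling genes and 19 target genes, with 95% confidence intervals of limma. Filled points passed an adjusted p of 0.05 and crosses leave out room air replicate 1. Of these genes 8, 9 and 2 were higher, and the crosses of most chemokines lie to the right of the circles.

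Marker genes of the cells that carry these receptors were followed beside them, and those that passed the threshold are named, with 1 left out. Over all genes 4.94% were higher and 3.27% lower by limma. Of 11 monocyte and macrophage markers 7 were higher and 0 lower, and 10 were higher without room air replicate 1, where 6.22% of all genes were. Cd68, a lysosomal protein of macrophages, rose 4.16-fold and Adgre1, a macrophage surface protein, 2.62-fold. Mpeg1, Cx3cr1, Csf1r and Fcgr1 rose 1.96-fold, 1.85-fold, 1.49-fold and 1.43-fold. Of 9 alveolar macrophage markers 4 were higher and 1 lower. Marco, a scavenger receptor, rose 6.05-fold, Chil3, a chitinase-like secreted protein, 4.33-fold, the integrin Itgax 2.53-fold and the nuclear receptor Pparg 1.72-fold, while Cidec, a lipid droplet protein, fell by 1.02 on the log2 scale. Not all markers of these cells moved, as Lyz2, the brightest of the monocyte and macrophage list, had a log2 difference of 0.18 (adjusted p = 0.706 by limma).

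Dendritic cell markers, which bear on Ly75 and Clec4a2, were higher in 5 of 10 and lower in 0 by limma. The shares over all genes were 4.94% and 3.27%. Without room air replicate 1 the dendritic cell markers higher were 7, where 6.22% of all genes were. With the slide as a block 6 were higher and 2 lower by limma, against 7.49% and 6.3% of all genes. The 2 lower with the block were Siglech (adjusted p = 0.0235 by limma) and Zbtb46 (adjusted p = 0.0422). The 5 higher without the block were Itgae (1.77-fold), Ccr7 (1.36-fold), Fscn1 (1.27-fold), Irf8 (1.26-fold) and Flt3 (1.20-fold), and Irf8 was the brightest of the list. Neutrophil markers were higher in 2 of 12, the granule genes Mmp8 (2.24-fold) and Camp (1.51-fold), both with a green reference well above background on 0 of 10 arrays, so that the size depends on the floor of that channel, while S100a9, the brightest, had a log2 difference of 0.16. Without room air replicate 1 the neutrophil markers higher were 4. With the slide as a block they were 3, Ltf being added (adjusted p = 0.0307 by limma). General leukocyte markers were higher in 3 of 5, Laptm5 (1.97-fold), Cd53 (1.77-fold) and Cd52 (1.55-fold), and in 5 of 5 without room air replicate 1 or with the slide as a block. B and T cell and epithelial markers were called in 0 of 6, 0 of 6 and 0 of 11 by limma. With the slide as a block the T cell markers Cd3g (adjusted p = 0.00538) and Cd3d (adjusted p = 0.0327) and the epithelial marker Sftpd (adjusted p = 0.044) passed by limma as higher. Markers that passed only with the block were chosen after their values were seen. NK cell markers were lower in 1 of 6, Prf1, which fell by 0.64 on the log2 scale with a green reference well above background on 1 array, and endothelial markers in 1 of 7, Pecam1, which fell by 0.41. Without room air replicate 1 the NK cell markers lower were 2, where 1138 of all 27669 genes were lower. With the block the endothelial markers lower were 2, where 6.3% of all genes were. The summed red signal was taken relative to each array's 75th percentile. For the 7 detected receptors, where Clec7a is the brightest, it was 9.66 to 20.9 in room air and 33.1 to 40.9 with smoke. For the alveolar macrophage list, where Chil3 is the brightest and the median log2 difference was 0.35, it was 58.5 to 61.3 in room air and 171 to 212 with smoke, again without overlap. For the monocyte and macrophage list, where Lyz2 is the brightest, it was 599 to 833 in room air and 603 to 1161 with smoke and overlapped, while the mean log2 ratio of that list, 0.79 to 1.36 in room air and 1.81 to 1.93 with smoke, did not. Whether the receptor differences follow the number of these cells was not tested.

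The genes most like each receptor were found by the root mean square difference of mean-centred log2 ratios over the 10 arrays, among 17129 genes well above background on all of them. For Clec5a these were Msr1 (0.15), a macrophage scavenger receptor, and Tmc5 (0.29). For Clec4d they were Il1rn (0.16), the interleukin-1 receptor antagonist, and Ccl17 (0.17), and for Clec4e the nearest named gene was Tnf (0.17). For Clec7a it was Ptgir (0.13), the prostacyclin receptor, for Clec4n Chil4 (0.30) and C1qb (0.30), for Clec4a2 Agrp (0.09) and Sec1 (0.09), and for Ly75 Gsdme (0.10) and Lcp1 (0.11). These are descriptions without a test.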

How the data were processed

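Lung RNA of 10 mice was measured on 2-colour Agilent arrays, 1 lung per array. Group and replicate number come from the labels of the samples. The authors deposited scanner output, in which the intensities of every spot and its surroundings in both colours were extracted with Agilent Feature Extraction 9.5.3.1 per the file headers. The deposited files also hold the scanner software's log10 ratio of red over green. A further table of log2 values was deposited by the authors. Each of its 282045 values equals, within 1e-04, the mean log2 of both background-subtracted channels on the array with the same replicate number but the opposite group. Its column medians run from 7.32 to 8.03, without scaling between arrays.

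Spot means were corrected with limma's normexp (offset 50), normalized by loess within arrays with control spots given no weight, and averaged per probe, leaving out spots the scanner software marked as outliers (83 to 144 per array). The design planned the ratio of red over green, with a single channel to be used only if the files held 1 colour, and the files held 2. The fit used lmFit and eBayes (R 4.3.3, limma 3.58.1) on all probes at once, with two-sided p-values adjusted by Benjamini-Hochberg, and was tested on simulated data. Probes were named through the RefSeq accessions of the array annotation, then by symbol. A fold is the antilog of the difference in mean log2 ratio. The members and lists were chosen with earlier results of these data known. By rule the text names all receptor probes, the adaptors with Syk and Card9, and genes of the other lists that passed with a fold over 2, or passed in a list of at most 12 genes, of which 1 marker is not named. The alternatives changed the test, background correction, normalization, channel, filter on dim probes, choice of probe, slide block and arrays.

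Arrays with a common replicate number share a slide, and their deviations from the mean of their group correlated at 0.157, 0.461, 0.46, 0.55 and 0.415 over probes, where pairs of unlike number had a median of -0.123 and reached 0.205, above the value of replicate 1. An alternative fit treats the slide as a block.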

Additional observations from a re-analysis of the deposited data

Results flagged for a closer look

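In a group of 5 arrays, a lung was marked where its gap to the nearest other lung exceeded Dixon's critical share of the group's range, and chance flags about 1 in 20 groups. Of the 13 receptor probes, 4 were marked in the room air group, and in each it was replicate 1 as the highest lung. Its log2 ratio was 0.13 for Clec5a (A_52_P218058), 3.04 for Clec7a, 0.50 for Clec4d and -0.14 for Clec4e. The gap took 0.842, 0.76, 0.805 and 0.968 of the range of the room air group. The 4 marks come from the same array and are not independent. The share of all probes marked by this rule is not given, so the marks do not show that the lung stood apart in the receptors in particular. The groups of smoke arrays had no marked receptor probe.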

How the results depend on the processing

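The count of 5 receptor genes was 5 to 7 when each array was left out in turn, 7 without room air replicate 1, 0 with the exact Wilcoxon test and 3 with the scanner's log ratio. The share of all genes called with the scanner's log ratio is not given, so the 3 cannot be set beside it. With the slide as a replicate block it was 6, and the block changed the call of Clec4d (adjusted p = 0.038) and of the dimmest Clec5a probe (adjusted p = 0.0273) and of no other receptor probe. Under the block the other C-type lectin receptors called lower were 5 and the signalling genes called lower 1, where 6.3% of all genes were lower. With red alone scaled to the 75th percentile, the other receptors called lower were 1, where 1.75% of all genes were lower. The signalling genes called higher were 6, against 9 in the main fit. The share of all genes called higher in red alone is not given, so the 6 cannot be set beside it. Leaving out each array in turn gave 8 to 10 other receptors higher and 2 to 4 lower, and 7 to 11 signalling genes higher. Target genes higher were 2 to 10, the 10 being reached without room air replicate 1. Among the omissions the share of all genes called higher is given only for that array, at 6.22%. The counts of the other omissions cannot be set beside such a share. The scanner's log ratio gave Clec4n an adjusted p of 0.0871. Averaging a gene's probes left the count at 5, and the log2 difference of Clec5a at its brightest probe ran from 2.08 to 2.50 over the omissions. In the deposited table with its columns as labelled, an alternative chosen after seeing the data, signs turned: -1.15 and -1.01 for Clec5a, -0.74 for Clec7a, -0.99 for Clec4a2 and -1.46 for its second probe, which rests on 2 values where the others have 10, -1.21 for Clec4n, and -0.60 and -0.47 for Ly75. Clec4d at -0.78 and Clec4e, near 0, turned sign as well. There limma called 13 probes over the whole table and 0 receptor genes, with 6 receptor genes at an unadjusted p under 0.05. With so few calls over all probes, the 0 is not particular to the receptors. The exchange of groups shown by the matching values accounts for the sign. For the other changes the cause was not tested. Clec12a and 1 probe of Clec4a2 lay below the signal that the arrays can measure.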
